A study of Mus musculus with 6 samples.

Results

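The genes described here are 43 genes of the ribbon synapse and of synaptic vesicle release, of 19401 genes listed in at least 1 library of a retinal RNAseq of 5XFAD mice. They were chosen by name for what their proteins do (scaffold, priming, fusion, vesicle membrane and endocytosis), not by their measured values, and they hold pairs of paralogs of which 1 is used mainly at ribbon synapses and the other at conventional ones. All 43 were listed in each of the 6 libraries, and all 43 had enough counts to be tested.

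The 6 libraries were made from retina plus RPE, 3 from control and 3 from EFV-treated 5XFAD mice, and the comparison asks how treatment with efavirenz (EFV), an antiretroviral drug that at low dose activates the cholesterol hydroxylase CYP46A1, altered retinal gene expression. Mice of both groups were hemizygous 5XFAD on the B6SJL background, which carry human transgenes with familial Alzheimer's disease mutations under the neuronal Thy1 promoter. All were 9 months old, and each library was a pool of 5 to 6 mice. EFV-treated mice drank water with EFV (0.08 mg/kg of body weight in the sample labels, while the study's methods give another dose) from 3 to 9 months of age. Control mice, called untreated in the labels, drank water with the vehicle alone according to the methods. Since the mice were pooled, p-values measure the spread between 3 pools a group and not between animals.

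Rounded expected counts summed to 24590278, 23455167 and 24337444 in control replicates 1, 2 and 3 and to 24487218, 24360060 and 24160101 in EFV replicates 1, 2 and 3. No library was a repeat of another, since the counts of every pair of libraries differed beyond sampling noise (the chi-square divided by its degrees of freedom lay between 5.4 and 13.3). Control replicate 3 stood apart. The summed FPKM of 6 lens markers, of which Cryaa (a lens crystallin) was the most abundant, was 1750.3 in that library and 24.7 and 49.9 in the other control libraries, against 56.1, 15.4 and 89.6 in EFV replicates 1, 2 and 3. The mice are described as male in the study's methods. FPKM of the Y-linked gene Eif2s3y was 32.9, 30.7 and 30.4 in control and 40.8, 33.3 and 15.2 in EFV replicates 1, 2 and 3, and Ddx3y, Kdm5d and Uty were likewise lowest in EFV replicate 3 and highest in EFV replicate 1. In EFV replicate 3, FPKM was 5.08 for Ddx3y, 2.07 for Kdm5d and 2.85 for Uty, where the lowest control values were 10.4, 4.18 and 6.11. Whether every mouse in the pool of EFV replicate 3 was male was not tested. The part of lens RNA and of the Y-linked difference in the results below was not tested. The counts over the 43 genes and the paralog values were repeated without each library, while those of the other lists, the cell type markers and the transcript lengths were not. FPKM, the unit of levels here, is the number of fragments scaled to transcript length and to the fragments mapped in the library, so it can be compared between genes.

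Photoreceptors and bipolar cells of the retina release glutamate continuously, at a rate graded by membrane voltage. At these terminals a plate called the ribbon, built mostly of the protein RIBEYE, holds a large pool of vesicles next to the calcium channels of the active zone. Amacrine and ganglion cells have conventional synapses, which release vesicles upon action potentials or local depolarization and use in part other paralogs of the release proteins. In bulk tissue, fewer cells of a type and less RNA per cell cannot be told apart.

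No difference between EFV-treated and control mice was detected in any of the 43 genes. In edgeR (quasi-likelihood, BH adjustment over all 15537 genes tested) the adjusted p was 0.05 or less for 0 of 43, and for 0 genes in all (0% of those tested). Before adjustment, 0 of 43 had a p of 0.05 or less in edgeR, where 472 of all genes (3.04%) had one, and the smallest among the 43 was 0.180, that of Syt2. In 0 of 43 did the 3 EFV libraries lie on one side of the 3 control libraries in CPM (counts scaled to a common library total), which was the case for 1264 genes (8.14%) in all. With scaling by total counts it was 1 of 43 (7.94% of all genes), and in FPKM, a comparison added after the values were seen, also 1 of 43 (7.67% of all genes). In both cases the gene was Bin1, higher in EFV-treated mice. Leaving out 1 library makes overlap rarer. In CPM it was then 1, 3 and 5 of 43 without control replicates 1, 2 and 3 (18.3%, 15.9% and 17.9% of all genes) and 2, 9 and 3 without EFV replicates 1, 2 and 3 (17%, 18.8% and 19%). Without control replicate 1 the gene was Rims1 and without control replicate 2 they were Pclo, Rims2 and Syt2, all higher in EFV-treated mice. Without control replicate 3 they were Unc13b, Syt1, Syt11, Snap25 and Dlg2, all lower. Without EFV replicate 1 they were Unc13a and Ppfia3, both higher, and without EFV replicate 3 Sv2b and Bin1, higher, and Napa, lower. The 9 without EFV replicate 2 were Ctbp2 and Cplx2, higher, and Erc1, Erc2, Syt1, Syp, Nsf, Sh3gl2 and Homer1, lower. Other tools likewise gave an unadjusted p at that level to 0 of 43, namely DESeq2 (1.74% of all genes), limma on log2(FPKM + 0.1) (3.19%) and limma on log2(FPKM + 1) (3.23%). A Poisson model, which takes sampling error alone and has no term for the variation among pools, called 20 of 43 before adjustment (25.1% of all genes) and 11 after it (13.1% of all genes). Such a model calls smaller differences at higher counts, and the 43 had a median of 5396 counts per library against 559 for all genes. The shares are therefore not a comparison at equal depth. The study's methods state a threshold based on the Poisson distribution, together with a minimum fold change that was not applied here.

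The log2 fold changes of EFV over control lay between -0.08 (Erc1) and 0.10 (Syt2), 18 above 0 and 25 below. Their median was -0.01, and that of all genes tested was 0.00. The size of the change was below that seen across the transcriptome, with a median absolute log2 fold change of 0.03 for the 43 genes and of 0.06 for all genes, but the 43 were also measured more deeply (a median of 5396 counts per library against 559), so that the comparison is a description only. A p above the threshold does not show equal levels, and the 95% intervals give the range of differences these pools leave. To either side of the estimate they reached 0.12 on the log2 scale in the median, and the lowest and highest bound of any of the 43 were -0.28 (Syn3) and 0.40 (Stx1a). Of the 43 intervals, 43 included 0. For the 12 genes of the paralog pairs described below, standard errors were from 0.04 (Cplx2) to 0.14 (Stx1a) and unadjusted p from 0.364 (Cplx2) to 0.866 (Cplx1) in edgeR.

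**Figure D1:**
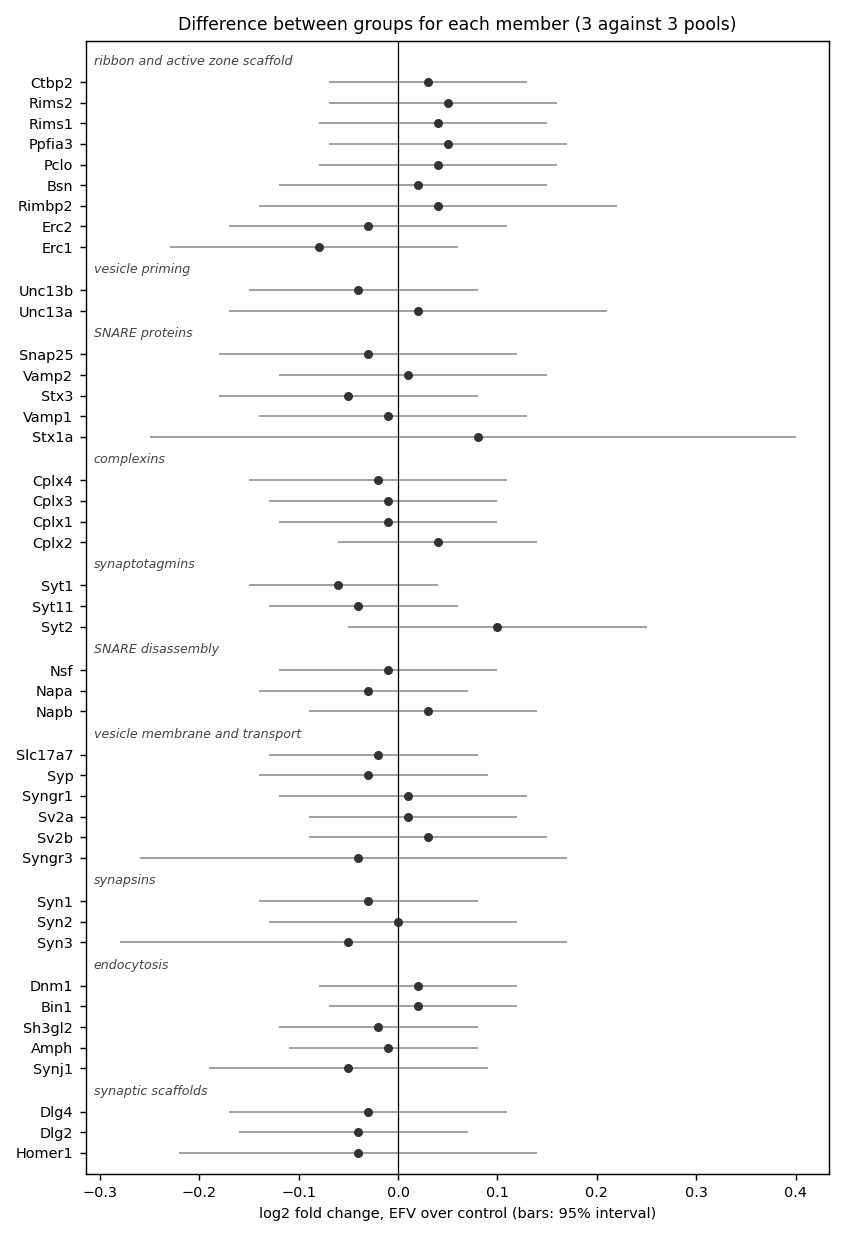
Log2 fold change of EFV over control for each of the 43 genes by role (points, edgeR) with its 95% interval (bars, 3 against 3 pools), the vertical line marking no difference. Every interval includes 0, and the widest is that of Stx1a, from -0.25 to 0.40.

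The levels themselves spanned a wide range. Mean FPKM over the 6 libraries was 100 or more for 12 of the 43 genes, from 10 to 100 for 23 and under 10 for 8, with a median of 49.6 against 7.66 for all genes tested. Slc17a7, Snap25, Syp and Vamp2 ranked 32, 52, 66 and 70 among the 15537 genes by mean FPKM, and Erc1, the lowest of the 43, ranked 11025. Together the 43 genes held between 1.30% (control replicate 3) and 1.37% (control replicate 2) of the summed FPKM of a library. The coefficient of variation of CPM between pools had a median of 4.05% in control and 4.31% in EFV-treated mice for the 43 genes, and of 6.17% and 6.5% for all genes.

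**Figure D2:**
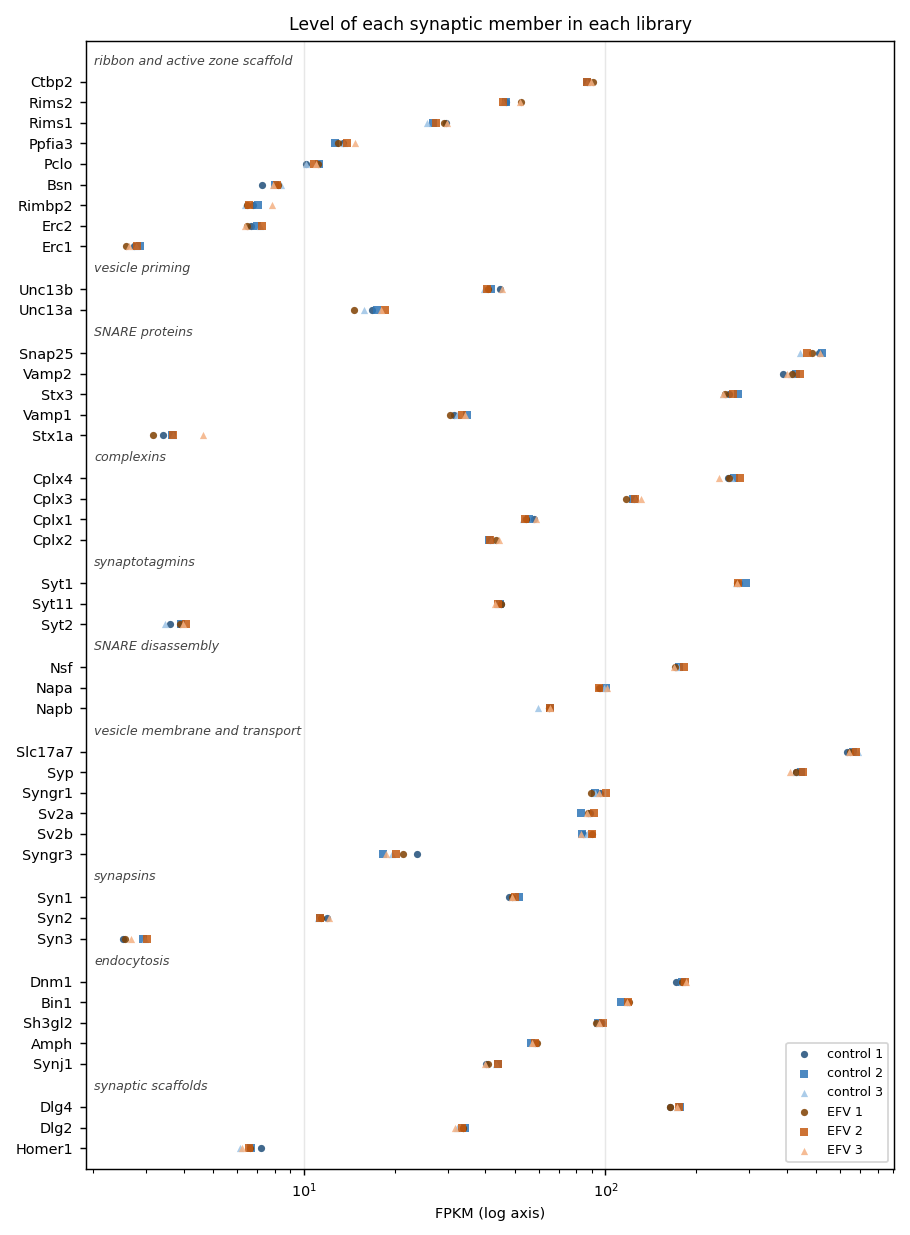
FPKM (log axis) of each of the 43 genes in each of the 6 libraries, by role and ordered by mean level within a role. For most genes the symbols nearly coincide, and the EFV libraries are farthest apart in Stx1a, at 3.15 in EFV replicate 1 and 4.62 in EFV replicate 3.

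Of the scaffold genes of the ribbon and the active zone, Ctbp2 was the most abundant. Ctbp2 (Entrez 13017, chr7:132986998-133124009 on GRCm38) encodes both RIBEYE, the main protein of the ribbon, which is transcribed from a start inside the gene, and the transcriptional corepressor CtBP2, with which RIBEYE shares its C-terminal part. FPKM of Ctbp2 was 87.1, 87.1 and 87.2 in control and 91.2, 87.1 and 89.3 in EFV replicates 1, 2 and 3. The control libraries were nearly identical, EFV replicates 1 and 3 lay above them and EFV replicate 2 was level with them. The log2 fold change was 0.03 (95% interval -0.07 to 0.13). The deposited gene level adds up 5 transcripts of Ctbp2, so RIBEYE and CtBP2 are not separated in this value. In GENCODE, Ctbp2 also shares 314 exon bases with Fgfr2 on the same strand. The RefSeq position of Fgfr2 (chr7:130162451-130266808), however, lies outside that of Ctbp2. Mean FPKM of Fgfr2 was 0.46.

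A stretch before the inner start of Ctbp2, the start of the RIBEYE transcript, is shown because it holds the letters TAATCC, the core of sites bound by the photoreceptor and bipolar cell factors CRX and OTX2. Promoter windows of RefSeq (GRCm38.p6) were found for 36 of the 43 genes, and the 250 bases before each start were searched on both strands (TAATCC or, on the other strand, GGATTA). The motif was in 5 of the 49 windows of these genes (10.2%) and in 6.25% of all 32851 windows. The 5 were windows of Ctbp2 (the inner start, but not its other window, which lies 29931 bases from the nearest start in GENCODE), Dlg4, Syp and, with 2 of its 4 starts, Sv2b, the ribbon-type paralog discussed below, whereas the windows of Sv2a, Stx3, Stx1a, Cplx1, Cplx3, Unc13a, Unc13b and Rims1 did not hold these letters. A match is a description and does not show that a factor binds. The Ctbp2 stretch lies at chr7:133015351-133015380 with the motif starting 121 bases before the start, and GENCODE also places an exon of other Ctbp2 transcripts there. The Sv2b stretches lie at chr7:75309380-75309439 (outermost start, motif 150 bases before it) and chr7:75302668-75302727 (an inner start in RefSeq, 5700 bases from the nearest start in GENCODE, motif 91 bases before it), with no annotated exon. All are written 5′ to 3′ on the gene's strand, the minus strand, with the motif in capitals.
Ctbp2 inner start: taaggtttcagaGGATTAataatttaggtc
Sv2b outermost start: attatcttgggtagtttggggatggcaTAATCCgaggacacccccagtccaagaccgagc
Sv2b inner start: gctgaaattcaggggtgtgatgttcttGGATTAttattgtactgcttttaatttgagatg

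The large scaffold proteins bassoon (Bsn) and piccolo (Pclo), which anchor the ribbon and organize the active zone, had low levels per length. FPKM of Bsn lay between 7.27 and 8.37 in control and between 7.87 and 8.20 in EFV-treated mice, and that of Pclo between 10.2 and 11.2 and between 10.8 and 11.1. The EFV values of Bsn were inside the control range, and so were those of Pclo. The ERC proteins (Erc1 and Erc2), the RIM-binding protein Rimbp2 and the liprin Ppfia3 are further parts of the active zone, with a mean FPKM of 2.73, 6.83, 6.85 and 13.6. Log2 fold changes over the 9 scaffold genes were from -0.08 to 0.05, with 7 above 0, a median of 0.04 and intervals reaching from -0.23 to 0.22. Erc1 shares 1919 exon bases with an antisense gene, and since strandedness is not stated, its reads cannot be told apart from that gene's. Pclo likewise shares 429 exon bases with the antisense gene Gm26918 and 496 with Gm26954.

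RIM proteins bind vesicles by way of Rab3 and tie them to calcium channels. Rims2 (Entrez 116838), the main RIM gene of photoreceptors, had an FPKM of 46.7, 46.8 and 45.7 in control and 52.5, 45.8 and 52.0 in EFV replicates 1, 2 and 3. For its paralog Rims1 the values were 29.6, 26.8 and 25.6 in control and 29.1, 27.5 and 29.9 in EFV-treated mice. EFV replicates 1 and 3 were above all control libraries in Rims2, EFV replicate 2 was within the control range, and in Rims1 the groups overlapped. Log2 fold changes on the count scale were 0.05 for Rims2 (95% interval -0.07 to 0.16) and 0.04 for Rims1 (-0.08 to 0.15). The Rims2 value was 0.11 in limma on either FPKM scale and 0.02 without control replicate 1 or EFV replicate 1, and that of Rims1 was -0.01 without control replicate 3. The FPKM ratio of Rims2 to Rims1 was 1.58, 1.75 and 1.78 in control and 1.81, 1.67 and 1.74 in EFV-treated mice.

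Vesicle priming depends on Munc13 proteins, of which Unc13b encodes the form found at photoreceptor ribbons and Unc13a the main form of conventional synapses. FPKM of Unc13b was 44.5, 41.8 and 39.6 in control and 40.7, 40.3 and 45.4 in EFV replicates 1, 2 and 3. FPKM of Unc13a was 16.8, 17.5 and 15.8 in control and 14.6, 18.5 and 18.0 in EFV-treated mice. EFV replicate 1 had the lowest Unc13a of the 6 libraries and EFV replicate 2 the highest, so the EFV libraries enclosed the control ones. The log2 fold changes were -0.04 for Unc13b (95% interval -0.15 to 0.08) and 0.02 for Unc13a (-0.17 to 0.21). The sign turned for Unc13b in limma on either FPKM scale (0.01) and for Unc13a without control replicate 3 (-0.02), EFV replicate 2 (-0.04) or EFV replicate 3 (-0.02), while it was 0.12 without EFV replicate 1. Unc13a shares 495 exon bases with Colgalt1 on the opposite strand, so part of its reads may come from that gene.

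Fusion is carried out by SNARE proteins, namely SNAP-25 (Snap25), a syntaxin and a synaptobrevin (Vamp1 or Vamp2). FPKM of Snap25 was 511.5, 520.5 and 442.1 in control and 482.5, 466.9 and 516.1 in EFV replicates 1, 2 and 3, and its lowest value was in control replicate 3. Syntaxin 3 (Stx3, Entrez 20908) is the syntaxin of ribbon synapses and syntaxin 1A (Stx1a, Entrez 20907) one of conventional synapses. Stx3 had an FPKM of 257, 274.5 and 245.5 in control and 249, 264 and 245.5 in EFV-treated mice. Stx1a had 3.4, 3.65 and 3.67 in control and 3.15, 3.67 and 4.62 in EFV-treated mice. In Stx3 the groups overlapped almost entirely, and in Stx1a EFV replicate 3 stood above the other 5 libraries while EFV replicate 1 stood below them. Log2 fold changes were -0.05 for Stx3 (95% interval -0.18 to 0.08) and 0.08 for Stx1a (-0.25 to 0.40). Stx3 was at 0.00 without control replicate 2, and Stx1a was at -0.08 without EFV replicate 3 and at 0.20 without EFV replicate 1. Vamp2, the more abundant of the synaptobrevins here, lay between 389 and 429 in control and between 399 and 442 in EFV-treated mice, and Vamp1 between 31.4 and 34.8 and between 30.5 and 34.2.

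Complexins clamp and promote the assembled SNARE complex, and Cplx3 and Cplx4 are the forms of retinal ribbon synapses, while Cplx1 and Cplx2 are those of conventional synapses. Cplx4 (Entrez 225644) had an FPKM of 255, 266 and 260.3 in control and 257, 278.5 and 238 in EFV replicates 1, 2 and 3. Cplx3 had 124, 123 and 125 in control and 117, 125 and 132 in EFV-treated mice. In both genes the EFV libraries enclosed the control libraries, and EFV replicate 3 was the lowest of the 6 in Cplx4 and the highest in Cplx3. FPKM of Cplx1 was 57.9, 55.7 and 53.1 in control and 54.6, 54.2 and 58.9 in EFV-treated mice. That of Cplx2 was 41.5, 41.2 and 41.7 in control and 43.4, 41.6 and 44.4 in EFV-treated mice, where only EFV replicate 2 was inside the control range. Log2 fold changes of the complexins were -0.02 for Cplx4 (95% interval -0.15 to 0.11), -0.01 for Cplx3 (-0.13 to 0.10), -0.01 for Cplx1 (-0.12 to 0.10) and 0.04 for Cplx2 (-0.06 to 0.14). The sign of the Cplx1 and Cplx3 values turned with scaling by total counts and in limma (0.01 and 0.00). With 1 library left out it turned for Cplx1 without control replicate 1 (0.02), EFV replicate 1 or EFV replicate 2 (0.01 for each), for Cplx3 without EFV replicate 1 (0.03) and for Cplx4 without control replicate 2 (0.01) or EFV replicate 3 (0.02).

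The calcium sensor synaptotagmin 1 (Syt1) had an FPKM of 278, 293 and 271.5 in control and 272, 274 and 272 in EFV replicates 1, 2 and 3. The EFV libraries were close together, inside the control range. Synaptotagmin 2 (Syt2), another fast calcium sensor, was near 4, with 3.61, 3.91 and 3.47 in control and 3.88, 4.07 and 3.97 in EFV-treated mice, and EFV replicate 1 overlapped the control range. Its log2 fold change of 0.10 (95% interval -0.05 to 0.25) was the highest of the 43, with an unadjusted p of 0.180 and an adjusted p of 0.999 in edgeR (BH). Syt11, a synaptotagmin that does not bind calcium, lay between 44.0 and 44.9 in control and between 43.0 and 44.9 in EFV-treated mice. After fusion the SNARE complex is taken apart by NSF with the SNAP adaptors Napa and Napb. FPKM of Nsf was 171, 175 and 174 in control and 169.6, 182.7 and 169 in EFV-treated mice, so that EFV replicate 2 was above and the other EFV libraries below the control range. Log2 fold changes of Nsf, Napa and Napb were from -0.03 to 0.03.

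Among proteins of the vesicle membrane, VGLUT1 (Slc17a7), which fills vesicles of photoreceptors and bipolar cells with glutamate, was the most abundant of the 43 genes. Its FPKM was 632, 664 and 686 in control and 648, 679.8 and 643 in EFV replicates 1, 2 and 3, and every EFV library was inside the control range. Synaptophysin (Syp) had 429, 443 and 427 in control and 427, 452.5 and 411 in EFV-treated mice, with EFV replicate 2 highest and EFV replicate 3 lowest of the 6. Syp is uncertain, since it shares 875 exon bases with an antisense gene, Gm14703, whose reads cannot be told apart from its own. SV2 proteins are vesicle glycoproteins needed for normal release, and Sv2b is the form of photoreceptor ribbons. FPKM of Sv2b was 84.5, 83.6 and 86.7 in control and 90.5, 90.1 and 82.7 in EFV-treated mice. FPKM of Sv2a was 89.0, 83.0 and 88.2 in control and 87.4, 91.3 and 86.7 in EFV-treated mice. EFV replicates 1 and 2 were above all control libraries in Sv2b, EFV replicate 3 was below them, and in Sv2a EFV replicate 2 alone was above. The log2 fold changes were 0.03 for Sv2b (95% interval -0.09 to 0.15) and 0.01 for Sv2a (-0.09 to 0.12). Sv2a was at -0.01 without control replicate 2 and at -0.02 without EFV replicate 2, and without the latter library Sv2b was at 0.00. Syngr3, a synaptogyrin of the vesicle membrane, had the largest coefficient of variation of CPM between control pools of the 43 (12.9%). Its FPKM was 23.7, 18.3 and 19.5 in control and 21.4, 20.2 and 18.7 in EFV-treated mice.

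Synapsins tether vesicles in the reserve pool of conventional synapses and are absent from ribbon terminals. Syn1, the most abundant, had an FPKM of 47.7, 51.7 and 50.03 in control and 49.0, 50.3 and 49.1 in EFV replicates 1, 2 and 3. All EFV libraries were inside the control range. Syn2 had a mean of 11.5 and Syn3 of 2.78, and the 3 log2 fold changes were from -0.05 to 0.00. The reading of Syn3 is uncertain, since it shares 1733 exon bases with Timp3 on the opposite strand, a gene of RPE and other cells with a mean FPKM of 17.4. Vesicle membrane is recovered by dynamin 1 (Dnm1), amphiphysin (Amph), Bin1, synaptojanin (Synj1) and endophilin A1 (Sh3gl2). Dnm1, the most abundant of them, had 172, 179.8 and 179 in control and 179, 183.2 and 185 in EFV-treated mice, so that EFV replicates 2 and 3 were above the control range and EFV replicate 1 was not. In Bin1, FPKM was 117.5, 112.8 and 117.5 in control and 119.7, 118.4 and 117.8 in EFV-treated mice, so every EFV library was above every control library. In CPM with TMM scaling the groups of Bin1 overlapped, with 283.4, 277.1 and 285.8 in control and 287.8, 289 and 283.2 in EFV-treated mice. Its log2 fold change was 0.02 (95% interval -0.07 to 0.12, standard error 0.04, unadjusted p 0.593, adjusted p 0.999 in edgeR with BH), 0.04 with scaling by total counts and 0.01 without control replicate 2. The log2 fold changes of these 5 genes were from -0.05 to 0.02. Of them, Bin1 shares 256 exon bases with A830052D11Rik on the opposite strand, so part of its reads may come from that gene.

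The scaffold PSD-95 (Dlg4) is found at photoreceptor terminals and at postsynaptic sites. Its FPKM was 163, 177 and 173 in control and 164, 175 and 173 in EFV replicates 1, 2 and 3, and every EFV library was inside the control range. PSD-93 (Dlg2) lay between 32.2 and 34.3 in control and between 31.7 and 33.7 in EFV-treated mice. Homer1, which links glutamate receptors to intracellular calcium stores, lay between 6.14 and 7.19 and between 6.22 and 6.61. The log2 fold changes of these 3 genes were from -0.04 to -0.03.

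The ratio of ribbon-type to conventional paralogs within each library does not depend on library scaling. In FPKM the ratio of Stx3 to Stx1a was 75.6, 75.2 and 66.9 in control and 79.2, 71.9 and 53.2 in EFV replicates 1, 2 and 3. The ratio of Cplx3 plus Cplx4 to Cplx1 plus Cplx2 was 3.81, 4.02 and 4.07 in control and 3.82, 4.22 and 3.58 in EFV-treated mice. Both pairs thus favoured the ribbon form in every library, Stx3 by the widest margin, and EFV replicate 3 was lowest in both. The ratio of Unc13b to Unc13a was 2.65, 2.39 and 2.5 in control and 2.78, 2.18 and 2.52 in EFV-treated mice. The ratio of Sv2b to Sv2a was 0.95, 1.01 and 0.983 in control and 1.04, 0.987 and 0.954 in EFV-treated mice. SV2 was thus the pair in which neither form was ahead, and in all 5 pairs the groups overlapped. On the log2 scale the differences, EFV minus control, were -0.11 for Stx3 over Stx1a (95% interval from the pooled SD -0.62 to 0.40), -0.04 for the complexins (-0.25 to 0.17), 0.02 for SV2 (-0.10 to 0.13), -0.02 for Munc13 (-0.33 to 0.29) and 0.03 for RIM (-0.15 to 0.21). Two-sided exact permutation tests gave p = 0.80, 0.70, 0.70, 1 and 0.70 in this order, and 1 for each after BH adjustment over the 5 pairs. With 3 libraries against 3 such a test cannot go below 0.10. Each of the 5 differences turned its sign when 1 library was left out. This was EFV replicate 3 for Stx3 over Stx1a (0.06) and the complexins (0.02), control replicate 1 for RIM (-0.02), control replicate 1 or EFV replicate 1 for SV2 (-0.01 for each) and control replicate 1 or EFV replicate 2 for Munc13 (0.02 and 0.08). With TMM-scaled counts in place of FPKM the differences were 0.01 for SV2, -0.05 for Munc13 and 0.01 for RIM.

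**Figure D3:**
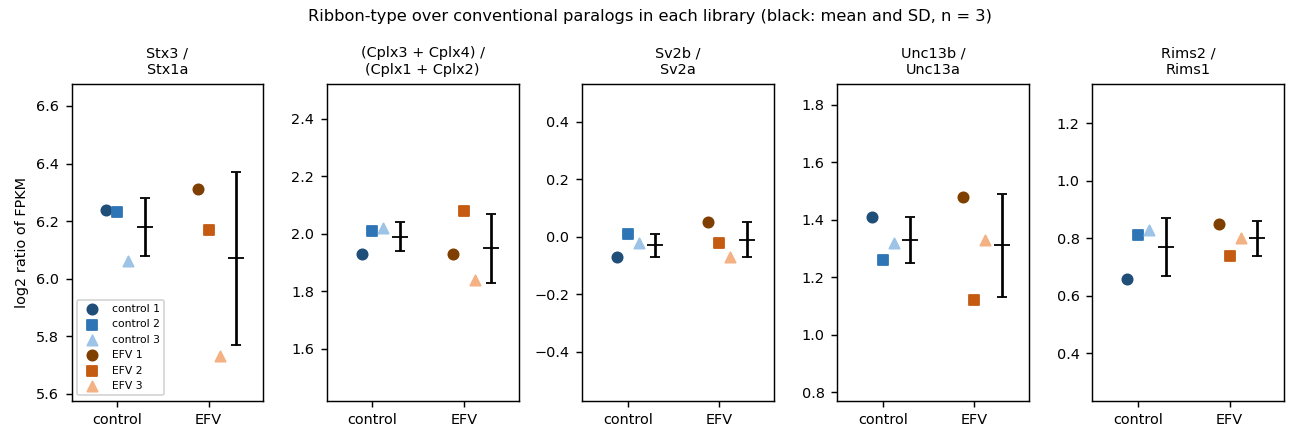
Log2 ratio of FPKM of ribbon-type over conventional paralogs in each library, 1 panel per pair with the same height of axis, and in black the mean and SD of each group (n = 3). The groups overlap in all 5 panels, and the lowest point of the Stx3 panel is EFV replicate 3, at 5.73.

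The small differences between libraries did not follow the groups. Relative to the mean of the 6 libraries, the median deviation of the 43 genes was -0.01, 0.04 and -0.01 in control and -0.04, 0.04 and -0.02 in EFV replicates 1, 2 and 3 (log2 CPM), while that of all genes tested was 0.00 in each library. Control replicate 2 had 34 of 43 genes above their mean and EFV replicate 2 had 30, against 14 to 19 in the other 4 libraries. The highest of the 6 values was in EFV replicate 2 for 15 genes and in control replicate 2 for 13. The summed FPKM of 6 RPE markers, of which Ttr was the most abundant, was 55.4, 27.9 and 52.2 in control and 48.8, 60.6 and 62.1 in EFV replicates 1, 2 and 3, hence lowest in control replicate 2 but not in EFV replicate 2. The part of RPE in the deviations was not tested.

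**Figure D4:**
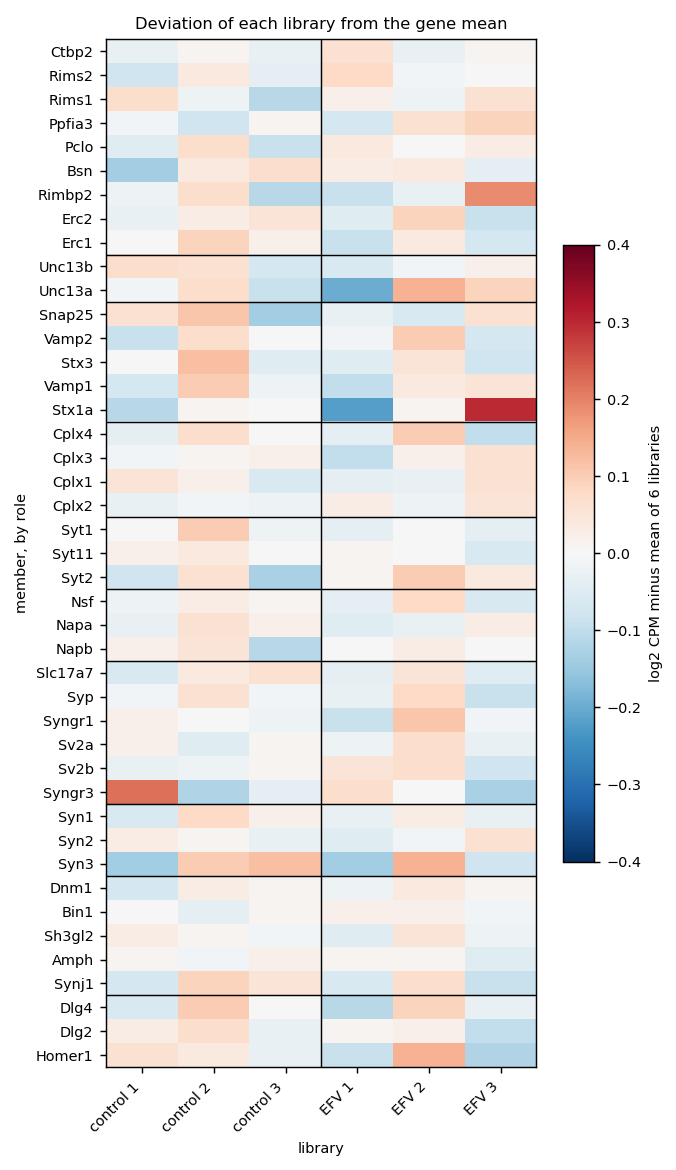
Deviation of log2 CPM from the mean of the 6 libraries for the 43 genes (by role, top to bottom) in each library (left to right), red above and blue below the mean. Control replicate 2 and EFV replicate 2 are mostly red, and no gene is red throughout one group and blue throughout the other.

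Many of these genes have several transcripts, and the deposited length of a gene is the mean length of its transcripts weighted by their estimated use in that library. A shift in length is thus a shift in estimated transcript use, and the error of that estimate was not measured. Of the 43 genes, 29 had several transcripts and a length that varied by more than 1 base between libraries, with a median range of 1.22% of the mean against 1.76% for the 7629 such genes in all. In 2 of the 29 the groups did not overlap, compared with 9.24% of all such genes, and both were longer in EFV-treated mice. These were Vamp1, with 2862, 2852 and 2860.3 bases in control and 2887, 2866 and 2886 in EFV replicates 1, 2 and 3, and Bin1, with 2473, 2473 and 2477 in control and 2479.9, 2484 and 2492 in EFV-treated mice. For each the two-sided exact permutation p was 0.10, the smallest that this design allows, and the difference of the means was 21.8 and 11.1 bases. The widest range was that of Homer1, whose short transcripts encode a form without the coiled coil that joins Homer proteins. Its mean length was 3800.3, 3949 and 4141 bases in control and 3731, 4355 and 3905 in EFV-treated mice, with EFV replicates 1 and 2 at the 2 ends. Rims2 lay between 6139 and 6513 bases in control and between 5879 and 6472 in EFV-treated mice, and Unc13b between 9053 and 9421 and between 8722 and 9397. Both were shortest in EFV replicate 3 and longest in control replicate 2. For Ctbp2 the mean length was 5223, 5288 and 5214 bases in control and 5336, 5203 and 5319 in EFV replicates 1, 2 and 3. EFV replicates 1 and 3 were longer than every control library and EFV replicate 2 was shorter. Since FPKM divides by this length, a gene's FPKM and its CPM can order the libraries differently.

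**Figure D5:**
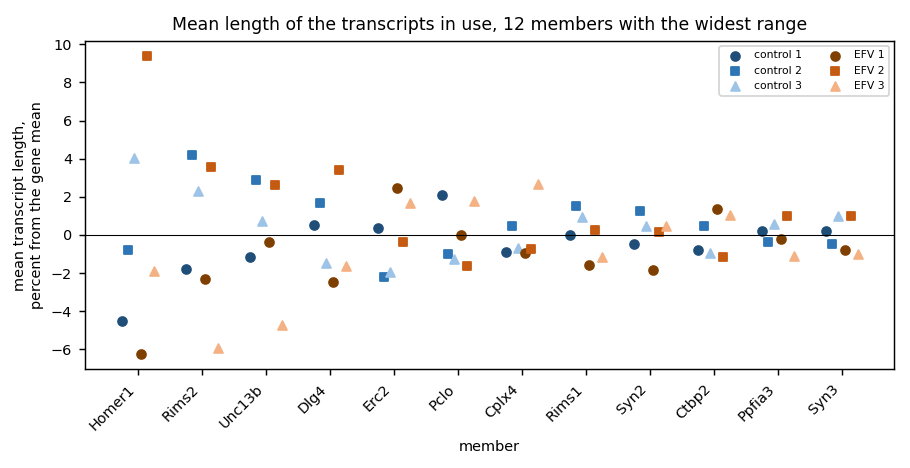
Mean length of the transcripts in use in each library, in percent from the mean of the gene, for the 12 genes of the 43 with the widest range. Homer1 spreads most, from 3731 bases in EFV replicate 1 to 4355 in EFV replicate 2, and in none of the 12 do the groups separate.

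Other genes of vesicle release, outside the 43, were examined as a list of 69 names, of which 68 were tested. The list holds among others the Rab3 proteins, further synaptotagmins and the synucleins. None passed at an adjusted p of 0.05 (edgeR, BH), 2 did before adjustment (both higher in EFV-treated mice, where 3.04% of all genes had one), and the median log2 fold change was -0.01. These were Unc13c, a Munc13 paralog, and Syt6, a synaptotagmin. FPKM of Unc13c was 8.22, 8.25 and 8.10 in control and 9.98, 8.70 and 9.82 in EFV replicates 1, 2 and 3. Every EFV library was above every control library, and the log2 fold change was 0.18 (standard error 0.05, unadjusted p 0.00525, adjusted p 0.999 in edgeR with BH). Unc13c is among the genes that the study picked as changed from these same libraries, so this is no independent evidence. FPKM of Syt6 was 5.63, 5.78 and 5.13 in control and 6.18, 6.07 and 6.41 in EFV-treated mice. The log2 fold change of Syt6 was 0.17 (standard error 0.07, unadjusted p 0.0312, adjusted p 0.999 in edgeR with BH). In Syt6 too the groups did not overlap, as in 5 of the 68 genes (8.14% of all genes tested). Sncb, which encodes beta-synuclein and was the most abundant of the list, had a mean FPKM of 423.

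Genes of calcium entry at the ribbon, of adhesion across the photoreceptor synapse and of the mGluR6 cascade of bipolar cells formed a second list, and all 22 were tested. None passed at an adjusted p of 0.05 and 0 did before adjustment (edgeR), 11 were above and 11 below 0, and the median log2 fold change was 0.00, within limits of -0.15 and 0.05. The groups did not overlap in 1 of the 22 (8.14% of all genes tested), Gnb5, a G protein beta subunit that partners with RGS proteins. FPKM of Gnb5 was 287.5, 292 and 295 in control and 300.3, 303 and 311 in EFV replicates 1, 2 and 3, with an unadjusted p of 0.260 in edgeR. Unc119, a photoreceptor synaptic protein and the most abundant of the 22, had a mean FPKM of 1464.

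Markers of the cell types that hold these synapses were examined in the same libraries. In edgeR, a p of 0.05 or less before adjustment, which 3.04% of all genes had, was seen in 0 of 7 rod, 0 of 5 cone, 0 of 7 bipolar, 0 of 5 amacrine, 0 of 7 ganglion and 0 of 4 horizontal cell markers, with median log2 fold changes of -0.03, -0.02, 0.00, -0.01, -0.03 and 0.03. For Muller cells it was 0 of 6, for microglia 0 of 4 and for endothelium 0 of 5 markers tested, with medians of -0.04, 0.00 and -0.11. It was seen in 2 of 6 RPE markers and 1 of 3 oligodendrocyte markers, all higher in EFV-treated mice, and in 6 of 6 lens markers, all lower, with medians of 0.38, 0.19 and -3.44. The summed levels of RPE and lens markers given above show that RPE markers were lowest in control replicate 2 and lens markers highest in control replicate 3, and these counts were not repeated without those libraries. No marker passed after adjustment.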

How the data were processed

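RNA was measured in 6 libraries, 3 per group. The authors estimated expected counts per gene with RSEM 1.2.12, which splits reads that map to several places, after alignment to mm10 with Bowtie2 2.2.5 (the submitters' processing notes also name HISAT2 2.0.4), and deposited these expected counts and FPKM values, which divide them by transcript length and library total. The read filter, annotation release and strandedness are not stated. Polyadenylated RNA was selected and copied with random primers.

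Expected counts were rounded. A gene entered the fit if 3 or more libraries had 10 or more counts, and edgeR 4.0.16 in R 4.3.3 compared the groups (quasi-likelihood F test, TMM scaling, group as the only term, two-sided, BH over all genes). Paralog ratios and transcript lengths were compared with exact permutation tests. Alternatives were paralog ratios of TMM-scaled counts, RLE or total count scaling, no filter, DESeq2 1.42.0, limma 3.58.1 on log2 FPKM with pseudocounts of 0.1 and 1, a Poisson model, a block, and each library left out. Whether groups overlap was also counted in FPKM, an alternative chosen after seeing the data. The fits across genes were tested on simulated data, where edgeR missed most of the smallest changes set and some larger ones in genes with few counts. After it missed them, the bound for passing this test was narrowed to large changes in genes with more counts.

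The 43 genes and the lists were chosen with earlier results of these data known. Statistics were to be printed for those of the 43 with an unadjusted p of 0.05 or less or groups that do not overlap and for the genes of the 5 paralog pairs, library values for the most abundant gene of each role, and from other lists genes at an unadjusted p of 0.05 or less and the most abundant one. The lengths, the promoter motif and all other named genes were chosen after values were seen. Gene positions and promoters are from RefSeq (GRCm38.p6), exon overlaps from GENCODE. Some genes of the lists are not reported here.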

Additional observations from a re-analysis of the deposited data

How the results depend on the processing

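None of the 43 genes passed at an adjusted or unadjusted p of 0.05 under any alternative but the Poisson model, which allows for no spread between pools and called 11 and 20 of them. Over all genes, calls at an adjusted p of 0.05 numbered 0 in edgeR, 11 in DESeq2, 2043 in the Poisson model and 0 to 1 with 1 library left out (1 without EFV replicate 1). At an unadjusted p of 0.05 there were 472 genes in edgeR, 270 in DESeq2 and 3901 in the Poisson model. The median log2 fold change of the 43 genes lay between -0.03 and 0.01 under all alternatives. Of the 43, 0 had groups that did not overlap, 1 did with scaling by total counts, 1 did in the deposited FPKM (an alternative chosen after seeing the data), and between 1 (without control replicate 1) and 9 (without EFV replicate 2) did with 1 library left out, where fewer samples make overlap rarer.

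Counts of the other lists, the cell type markers and the transcript lengths were not repeated under alternatives. With 1 library left out, the paralog differences ranged from -0.23 to 0.06 (Stx3 over Stx1a), -0.10 to 0.02 (complexins), -0.01 to 0.05 (SV2), -0.10 to 0.08 (Munc13) and -0.02 to 0.07 (RIM). As ratios of TMM-scaled counts in place of FPKM the differences were -0.11, -0.04, 0.01, -0.05 and 0.01 in this order. With 1 library left out, log2 fold changes ranged from -0.01 to 0.08 (Rims1), 0.02 to 0.08 (Rims2, 0.11 in limma with either pseudocount), -0.04 to 0.12 (Unc13a), -0.08 to -0.01 (Unc13b), -0.08 to 0.20 (Stx1a), -0.09 to 0.00 (Stx3), -0.02 to 0.03 (Sv2a), 0.00 to 0.08 (Sv2b), -0.04 to 0.02 (Cplx1), 0.03 to 0.06 (Cplx2), -0.05 to 0.03 (Cplx3) and -0.08 to 0.02 (Cplx4). The sign also turned in limma on log2 FPKM with either pseudocount for Unc13b (0.01), Cplx1 (0.01) and Cplx3 (0.00), and with total count scaling for Cplx1 (0.01) and Cplx3 (0.00). The cause was not tested. For Bin1, log2 fold changes lay between 0.01 and 0.04 under all alternatives. Of 168 values of the 12 paralog genes under alternatives, 23 turned their sign.

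The labels number the libraries 1 to 3 in both groups. Deviations of same-numbered libraries correlated at 0.0999, 0.0777 and 0.111, not all above 0.1, so they were not taken as pairs, although every library correlated best with its own number. With the replicate number as a block, 0 of the 43 genes and 0 of all genes passed at an adjusted p of 0.05, 520 genes had an unadjusted p of 0.05 or less, and the median log2 fold change of the 43 was -0.01.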
